A study of Mus musculus with 12 samples.

Results

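The glycolysis and hypoxia response genes are a set of 35 mouse genes named by symbol: glucose and lactate carriers, glycolytic enzymes, the enzymes that set the fructose 2,6-bisphosphate level, the gatekeepers of pyruvate oxidation, and sensors and targets of the oxygen response. All 35 symbols were found once each among the 23234 rows of the deposited expression table. Their RNA was compared in islets of the C57BL/6 mouse strain in 3 groups of 4 libraries: day 60 grafts and day 120 grafts, which are islets placed in inguinal subcutaneous white adipose tissue, and isolated islets that had not been transplanted. The numbers 60 and 120 are days after transplantation, and the study compared gene expression before and after it. No genotype or treatment other than transplantation is named for any group, and the age of the mice, the state of the recipients and whether a library came from 1 animal or several are not given in the sources used here. Values are FPKM, fragments scaled to transcript length and to the mapped fragments of a library, so that levels may be set beside each other between genes.

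Glycolysis splits glucose into pyruvate in the cytosol. In the beta cell, glucose enters through the transporter Slc2a2, and most of the pyruvate passes on to the mitochondrion, where its oxidation is coupled to insulin release, while lactate dehydrogenase A and the lactate exporters are kept low. When oxygen is scarce, the prolyl hydroxylases of the Egln family no longer mark Hif1a for destruction, and the HIF complex binds a short DNA core, ACGTG or GCGTG, near its target genes, among them Slc2a1, most glycolytic enzymes, Pdk1, Bnip3, Car9, Ankrd37 and P4ha1.

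Promoter sequence was available from RefSeq (GRCm38.p6) for 34 of the 35 genes, all but Slc2a3. The 250 bases upstream of a start are shown for 4 genes with a change in the grafts described below: Slc2a1 and Pfkp, which were lower, and Pdk1 and Pdk2, which were higher. They are written 5′ to 3′ on the strand of the gene, and capitals mark the HIF core ACGTG or GCGTG or its reverse complement, CACGT or CACGC.

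Slc2a1, chr4:119108495-119108744, plus strand: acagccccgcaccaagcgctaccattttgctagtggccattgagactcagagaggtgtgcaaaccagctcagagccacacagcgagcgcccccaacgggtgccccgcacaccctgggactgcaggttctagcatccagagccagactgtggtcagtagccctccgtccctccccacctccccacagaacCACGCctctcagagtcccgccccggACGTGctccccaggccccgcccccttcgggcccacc
Pfkp, chr13:6648772-6649021, minus strand: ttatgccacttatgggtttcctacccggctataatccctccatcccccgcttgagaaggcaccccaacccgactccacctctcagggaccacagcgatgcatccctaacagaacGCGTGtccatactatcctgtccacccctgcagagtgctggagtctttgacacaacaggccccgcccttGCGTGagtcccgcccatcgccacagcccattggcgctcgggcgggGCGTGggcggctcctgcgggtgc
Pdk1, chr2:71872974-71873223, plus strand: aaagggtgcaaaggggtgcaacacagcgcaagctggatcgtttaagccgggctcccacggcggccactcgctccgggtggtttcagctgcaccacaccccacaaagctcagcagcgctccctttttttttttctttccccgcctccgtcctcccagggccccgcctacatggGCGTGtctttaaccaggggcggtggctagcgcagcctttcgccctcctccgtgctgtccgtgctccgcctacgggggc
Pdk2, chr11:95041372-95041621, minus strand: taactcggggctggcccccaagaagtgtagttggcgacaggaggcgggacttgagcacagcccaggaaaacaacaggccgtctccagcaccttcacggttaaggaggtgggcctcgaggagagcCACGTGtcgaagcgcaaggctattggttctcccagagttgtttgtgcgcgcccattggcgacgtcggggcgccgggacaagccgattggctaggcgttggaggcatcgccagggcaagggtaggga

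The Slc2a1 stretch held 1 ACGTG and 1 GCGTG, the Pfkp stretch 3 GCGTG and the Pdk1 stretch 1 GCGTG. In Pdk2 the 2 ACGTG matches lay in 1 CACGTG, the E-box, which reads as ACGTG on both strands. Both Pdk1 and Pdk2 have another RefSeq start whose upstream stretch held neither core. At least 1 of the cores, on either strand, was present upstream of 31 of the 34 genes (91.2%), or in 38 of their 47 promoters (80.9%), against 12679 of all 32851 promoters of the table (38.6%). ACGTG alone was in 51.1% of the 47 promoters and 16.6% of all, GCGTG in 51.1% and 28.2%, and CACGTG in 12.8% and 6.02%. The promoters of these genes were also richer in G and C, with a median GC content of 60.8% and a median of 14 CG dinucleotides, against 52.4% and 6 in all promoters. A match is a description of the letters and not a binding site.

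The libraries differed in ways that touch the results. Islet cell identity was present in every group, with 11 of 12 beta cell markers at a mean of at least 1 FPKM in both graft groups and 12 of 12 in isolated islets. The exception, Ins2, was listed at 0 in all 8 grafts and also in isolated islet replicates 1 and 2, and Ins1 at 0 in day 60 replicate 4. In such a table a 0 can be a failed estimate. The summed FPKM of 12 adipocyte markers spanned 416 to 14736 in day 60 grafts, 337 to 1353 in day 120 grafts and 90.2 to 96.3 in isolated islets. That of 12 macrophage and granulocyte markers spanned 505 to 4221, 337 to 935 and 51.5 to 95.7 in that order of groups. Exocrine (acinar) markers summed to 15.97 to 23.8, 9.18 to 15.5 and 6859 to 78361 FPKM. Day 60 replicate 1 held the highest adipocyte, leukocyte and red blood cell sums of any library, and on the first principal component islet replicate 1 was placed at -46.0, between the other islets, at -91.3 to -86.1, and the grafts. In such bulk samples, fewer cells of a type and less RNA per cell cannot be told apart.

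A minority of the set was called as changed in the grafts in the main fit. Differences were tested by limma on log2(FPKM + 1) with Benjamini-Hochberg adjustment over 13433 genes, and a gene is said to have risen or fallen where its adjusted p was under 0.05; 33 of the 35 genes passed the filter on low values and were tested. In day 60 grafts against isolated islets, 7 of the 33 rose (21.2%), where 31.3% of all tested genes did, and 2 fell (6.06%), where 12.3% of all did. In day 120 grafts against isolated islets, 3 rose (9.09%, against 24.3% of all) and 2 fell (6.06%, against 7.03% of all). The shares that rose were below the background, and those that fell were below or near it. The groups did not overlap for 4 of the 33 at day 60 (12.1%, against 31.1% of all) and for 7 at day 120 (21.2%, against 35.5% of all). The median log2 difference of the 33 genes was 0.21 at day 60 and 0.13 at day 120, where that of all tested genes was 0.27 and 0.30. With other scalings of the libraries the median of all genes ran from -0.04 to 0.59 at day 60 and from 0.02 to 0.21 at day 120. The split of higher and lower calls moved with them, to 3 and 3 at day 60 and 1 and 3 at day 120 after quantile normalization, and to 3 and 4 and to 2 and 4 when libraries were scaled to their sum without hormone and acinar genes. Both comparisons use the same isolated islets, and all 3 groups share 1 estimate of the spread. Leaving out a library of the group outside a comparison therefore changed p-values but not the difference. Without day 60 replicate 1, 35.3% of all tested genes rose and 9.61% fell at day 120.

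**Figure D1:**
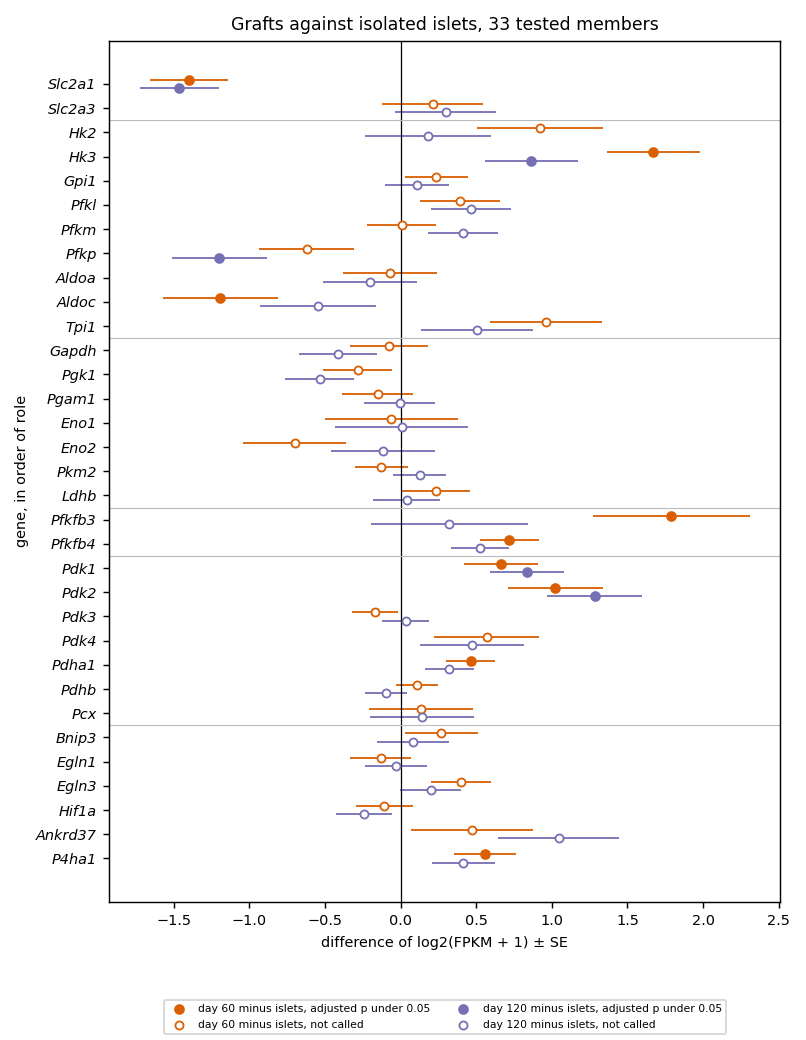
Difference of log2(FPKM + 1) with its SE for the 33 tested genes, day 60 grafts minus isolated islets (orange) and day 120 grafts minus isolated islets (violet), in order of role; filled points have an adjusted p under 0.05. Slc2a1 is lowest at both times, at -1.40 and -1.46. The 7 genes of lower glycolysis have no filled point, and lie from -0.70 (Eno2) to 0.23 (Ldhb) at day 60 and from -0.53 (Pgk1) to 0.13 (Pkm2) at day 120.

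Among the carriers, the glucose transporter Slc2a1 (GLUT1) was lower in every graft than in every isolated islet library. It measured 4.57, 4.57, 2.90 and 4.29 FPKM in day 60 grafts, 6.36, 2.78, 2.88 and 3.97 FPKM in day 120 grafts, and 7.85, 17.2, 13.7 and 12.02 FPKM in isolated islets, in the order of the replicates. The groups did not overlap at either time, and the lowest islet value was that of replicate 1. The log2 difference was -1.40 (SE 0.26, adjusted p = 0.00188, limma) at day 60 and -1.46 (SE 0.26, adjusted p = 0.00335, limma) at day 120. It kept its sign under all 24 alternatives tried and lost the call only when the libraries were scaled to endocrine genes (-1.05, adjusted p = 0.0853 at day 60, and -1.70, adjusted p = 0.0605 at day 120). The acinar marker sums, given above, were also lower in every graft than in every isolated islet library. So were those of 8 duct markers, at 145 to 298 FPKM at day 60 and 257 to 281 at day 120. In isolated islets the duct sums were 679 to 1023 FPKM. The part of such cells in Slc2a1 and the other genes that fell was not tested. Slc2a3 (GLUT3), the high-affinity transporter of neurons and leukocytes, averaged 1.23 ± 0.69 FPKM in day 60 grafts, 1.51 ± 1.39 in day 120 grafts and 0.88 ± 0.38 in isolated islets (SD, n = 4 each), and its groups overlapped. The lactate exporter Slc16a3 (MCT4) did not pass the filter, with 0.207 to 1.48 FPKM in day 60 grafts, 0.181 to 1.37 in day 120 grafts and 0.263 to 0.602 in isolated islets. Slc2a1 held 5.76% ± 2.18 of the summed FPKM of Slc2a1 to Slc2a4 in day 60 grafts, 3.24% ± 0.78 in day 120 grafts and 17.2% ± 8.59 in isolated islets (SD, n = 4 each), where Slc2a2 made up most of the rest. The islet shares ran from 4.32% to 22.0%, and the lowest lay within the day 60 range of 4.07% to 8.93%.

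In upper glycolysis, from hexokinase to triose phosphate isomerase, 1 of 9 genes rose and 1 fell at each time, and only the rise of Hk3 was called at both. Hk3, a hexokinase that is abundant in myeloid cells, measured 6.53, 0.93, 2.81 and 2.08 FPKM in day 60 grafts, 1.03, 1.15, 0.96 and 1.13 in day 120 grafts, and 0.12, 0.19, 0.13 and 0.11 in isolated islets. Every graft exceeded every isolated islet library, by 1.67 (SE 0.31, adjusted p = 0.00179, limma) at day 60 and 0.86 (SE 0.31, adjusted p = 0.0483, limma) at day 120 on the log2(FPKM + 1) scale, which understates the change of so low a gene. No isolated islet library reached the 1 FPKM of the filter. Hk3 thus entered the test, and the counts of genes that rose, only through the grafts, and the filter favoured a rise. With the grafts of the same number paired, the day 120 call was lost (adjusted p = 0.0608, limma). It was also lost when any isolated islet or day 120 library, or day 60 replicate 3 or 4, was left out (adjusted p up to 0.106), with no filter on low values (0.0660), with quantile normalization (0.39, adjusted p = 0.409) and with endocrine reference scaling (0.70, adjusted p = 0.502). The macrophage and granulocyte markers, given above, were higher in every graft than in every isolated islet library, and their part in the Hk3 values was not tested. Hk2, the hexokinase of muscle and fat, measured 6.96, 0.82, 2.60 and 0.55 FPKM in day 60 grafts, 1.13, 0.41, 1.23 and 0.55 in day 120 grafts, and 0.18, 0.69, 0.58 and 0.99 in isolated islets. Its groups overlapped and it was not called (0.92, adjusted p = 0.0896 at day 60, limma); without day 60 replicate 2 or without replicate 4 it was (1.16, adjusted p = 0.0498, and 1.24, adjusted p = 0.0276). Hk2 too reached 1 FPKM in grafts only, and so passed the filter through them.

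The 3 phosphofructokinase genes encode the muscle (Pfkm), liver (Pfkl) and platelet (Pfkp) subunits of the enzyme that commits glucose to glycolysis. Pfkp fell in day 120 grafts, with 5.91, 4.26, 3.56 and 4.07 FPKM, against 6.40, 14.7, 14.2 and 12.1 FPKM in isolated islets. The difference was -1.20 (SE 0.31, adjusted p = 0.0153, limma), and the groups did not overlap, although islet replicate 1 came within 1 FPKM of the highest graft. Left out in turn, islet replicates 2 and 3 took the adjusted p to 0.0526 and 0.0516, and endocrine reference scaling took it to 0.189 (-1.45). In day 60 grafts Pfkp was at 13.996, 5.13, 6.78 and 4.79 FPKM, so that replicate 1 lay among the isolated islets and the other 3 grafts near or below islet replicate 1. That difference, -0.62, was not called (adjusted p = 0.123, limma), but was without day 60 replicate 1 (-0.92, adjusted p = 0.0110) or without islet replicate 1 (-0.87, adjusted p = 0.0282). Pfkm averaged 14.3 ± 5.05, 18.4 ± 2.24 and 13.6 ± 2.03 FPKM and Pfkl 10.2 ± 3.71, 10.4 ± 1.70 and 7.56 ± 2.97 FPKM in day 60 grafts, day 120 grafts and isolated islets, and neither was called. Without islet replicate 1, Pfkl was called at day 120 (0.68, adjusted p = 0.0392). The summed FPKM of the 3 genes was close in the groups, at 32.2 ± 5.24, 33.3 ± 2.71 and 33.1 ± 3.35, while the share of Pfkp was 23.3% ± 10.0, 13.4% ± 3.21 and 36.1% ± 11.6 in the same order (SD, n = 4 each).

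Aldolase cleaves fructose 1,6-bisphosphate. Aldoc, the isoform typical of brain, fell in day 60 grafts, with 0.84, 1.36, 1.55 and 6.38 FPKM, against 7.02, 7.54, 5.12 and 4.29 FPKM in isolated islets (-1.19, SE 0.38, adjusted p = 0.0240, limma). Replicate 4 lay within the islet range, so the groups overlapped. The call was lost without day 60 replicate 1, 2 or 3 or without islet replicate 2 (adjusted p from 0.0512 to 0.0679). In day 120 grafts Aldoc was at 2.75, 3.09, 3.24 and 6.51 FPKM and was not called (-0.55, adjusted p = 0.279, limma). Aldoa, which made up 97.5%, 97.6% and 97.2% of aldolase FPKM in the mean, was at 225 ± 121, 186 ± 26.6 and 213 ± 23.5 FPKM in day 60 grafts, day 120 grafts and isolated islets. Tpi1, triose phosphate isomerase, missed the threshold at day 60 with 166, 33.8, 75.5 and 53.9 FPKM, against 46.3, 37.0, 31.6 and 28.1 FPKM in isolated islets (0.96, SE 0.37, adjusted p = 0.0501, limma), and passed it with the grafts paired (adjusted p = 0.0488) and without islet replicate 1 or day 60 replicate 2 or 4 (adjusted p from 0.00921 to 0.0486). It was at 61.4, 42.7, 47.1 and 52.0 FPKM in day 120 grafts (0.51, adjusted p = 0.298, limma). Gpi1, phosphoglucose isomerase, averaged 54.2 ± 16.8, 48.0 ± 6.41 and 44.3 ± 4.30 FPKM in the same order of groups.

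None of the 7 genes of lower glycolysis and lactate formation was called at either time by limma; at an unadjusted p under 0.05 there were 0 at day 60 and 1 at day 120, Pgk1. Gapdh, glyceraldehyde phosphate dehydrogenase, averaged 301 ± 131 FPKM in day 60 grafts, 224 ± 21.9 in day 120 grafts and 300.2 ± 48.7 in isolated islets. Pgk1, the phosphoglycerate kinase that forms the first ATP of the pathway, measured 50.4, 46.8, 36.4 and 41.4 FPKM in day 120 grafts, against 41.8, 76.3, 72.0 and 70.0 FPKM in isolated islets (-0.53, SE 0.23, adjusted p = 0.0876, limma). Islet replicate 1 alone lay within the graft range, and without it the difference was called (-0.73, adjusted p = 0.0130), as it was without day 60 replicate 1 (adjusted p = 0.0402) and under 3 of the 4 other scalings (adjusted p from 0.0312 to 0.0334). At day 60 Pgk1 was at 71.7, 39.8, 53.9 and 47.1 FPKM. Eno2, the neuronal and endocrine enolase, measured 2.76, 11.8, 9.54 and 14.4 FPKM in day 60 grafts, 11.1, 13.7, 12.5 and 15.5 in day 120 grafts, and 12.1, 15.2, 16.1 and 14.008 in isolated islets. Only day 60 replicates 1, 2 and 3 and day 120 replicate 1 lay below the islet range. Without day 60 replicate 4, Eno2 was called lower at day 60 (-0.94, adjusted p = 0.0431, against -0.70, adjusted p = 0.112, with all libraries, limma). Pgam1, Eno1, Pkm2 (the symbol of pyruvate kinase Pkm in this table) and Ldhb had log2 differences from -0.15 to 0.23 at day 60 and from -0.01 to 0.13 at day 120. Aldoa, Tpi1, Gapdh, Pgk1, Pgam1 and Eno1 have processed copies elsewhere in the mouse genome, and how reads shared with such copies were assigned is not given in the sources used here.

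Both bifunctional enzymes of the set, which make and degrade fructose 2,6-bisphosphate, the activator of phosphofructokinase, rose in day 60 grafts. Pfkfb3, the isoform with the strongest kinase activity, measured 51.1, 10.7, 25.5 and 5.25 FPKM in day 60 grafts, 4.13, 4.17, 9.80 and 5.002 in day 120 grafts, and 2.75, 4.83, 5.26 and 4.14 in isolated islets. Day 60 replicate 4 lay within the islet range, and 1 day 120 graft lay above it. The day 60 difference was 1.79 (SE 0.52, adjusted p = 0.0154, limma) and was called without any single library, but not without day 60 replicate 1 and islet replicate 1 together (1.12, adjusted p = 0.0659). The day 120 difference was 0.32 (adjusted p = 0.65, limma). Over the 4 day 60 grafts Pfkfb3 stood in the same order as the adipocyte marker sum, and so did Hk2. That sum was 14736, 875, 4545 and 416 FPKM in replicates 1 to 4. In day 120 grafts the sum was 1301, 337, 1353 and 437 FPKM, and Hk2 followed its order, while Pfkfb3 did not. How many of all genes share such an order was not counted, and the part of fat RNA in either gene was not tested. Pfkfb4 measured 4.85, 2.81, 2.93 and 2.65 FPKM in day 60 grafts, 3.41, 2.96, 2.35 and 2.17 in day 120 grafts, and 1.60, 1.81, 1.40 and 1.48 in isolated islets. Every graft lay above every isolated islet library, with a difference of 0.72 (SE 0.19, adjusted p = 0.0104, limma) at day 60 and 0.52 (SE 0.19, adjusted p = 0.0538, limma) at day 120, where pairing the grafts (adjusted p = 0.0481) or leaving out day 60 replicate 1 (adjusted p = 0.0175) took it past the threshold. The day 60 call was lost with quantile normalization (0.23, adjusted p = 0.387) and with endocrine reference scaling (1.06, adjusted p = 0.0764).

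**Figure D2:**
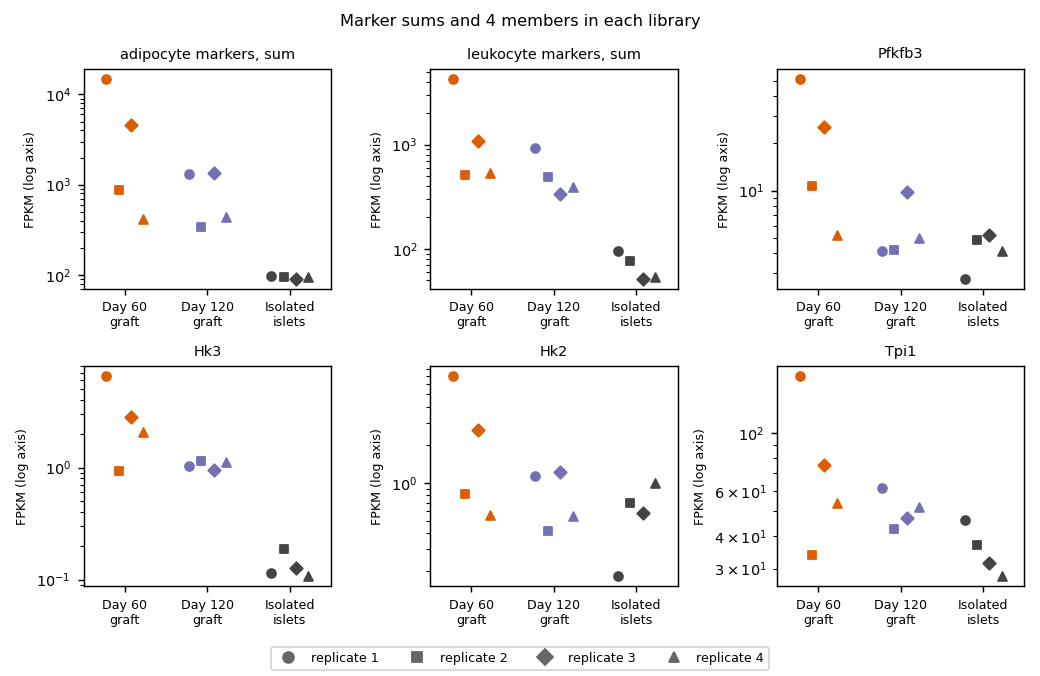
Summed FPKM of 12 adipocyte and 12 leukocyte markers and FPKM of Pfkfb3, Hk3, Hk2 and Tpi1 in each library, on log axes, with symbols by replicate number. Day 60 replicate 1 is the highest library in all 6 panels. Pfkfb3 in the day 60 grafts runs from 5.25 to 51.1 FPKM in the order of the adipocyte sum, which it does not follow in the day 120 grafts.

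Of the 7 genes that control the entry of pyruvate into the mitochondrial cycle, 3 rose at day 60 and 2 at day 120. Pdk1 and Pdk2 encode kinases that inactivate pyruvate dehydrogenase. Pdk2 measured 13.2, 6.21, 11.9 and 16.2 FPKM in day 60 grafts, 10.1, 12.6, 14.5 and 18.9 in day 120 grafts, and 9.74, 4.08, 3.91 and 3.97 in isolated islets. Islet replicate 1 stood far from the other 3 and close to the grafts, and still every day 120 graft exceeded it. The difference was 1.02 (SE 0.31, adjusted p = 0.0198, limma) at day 60 and 1.28 (SE 0.31, adjusted p = 0.0119, limma) at day 120. At day 120 the call held without each of the 12 libraries in turn (adjusted p up to 0.0430), and at day 60 it was lost without islet replicate 2, 3 or 4 or day 60 replicate 4 (adjusted p from 0.0532 to 0.0611), and with quantile normalization or scaling without hormone and acinar genes (adjusted p = 0.0750 and 0.0830). Endocrine reference scaling ended the day 120 call (0.99, adjusted p = 0.227). Without islet replicate 1 the differences were 1.30 (adjusted p = 0.00278) and 1.56 (adjusted p = 0.00124).

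Pdk1, the kinase gene known as a HIF target, measured 3.92, 10.2, 7.83 and 7.41 FPKM in day 60 grafts, 6.15, 10.4, 8.28 and 7.68 in day 120 grafts, and 5.22, 3.22, 4.18 and 3.79 in isolated islets. All day 120 grafts and 3 of the 4 day 60 grafts exceeded the islets, and day 60 replicate 1, the graft with the most fat, blood and leukocyte RNA, lay within the islet range. The difference was 0.66 (SE 0.25, adjusted p = 0.0431, limma) at day 60 and 0.83 (SE 0.25, adjusted p = 0.0238, limma) at day 120. Leaving out islet replicate 2, 3 or 4 or the like-timed graft replicate 2, 3 or 4 ended either call, with adjusted p-values from 0.0510 to 0.117, and leaving out day 120 replicate 3 or 4 also ended that of day 60. Either call was also lost with upper-quartile scaling, quantile normalization and scaling without hormone and acinar genes, with adjusted p-values from 0.0639 to 0.309 over both times. Endocrine reference scaling ended the day 120 call too (0.55, adjusted p = 0.350), and testing with no filter on low values that of day 60 (adjusted p = 0.0563). Pdk3 averaged 5.66 ± 0.92 FPKM in day 60 grafts, 6.63 ± 0.65 in day 120 grafts and 6.45 ± 0.57 in isolated islets, and Pdk4, the kinase of fasting muscle and heart, 2.93 ± 1.12, 2.76 ± 1.59 and 1.78 ± 1.43. Neither was called at either time; without islet replicate 1, which at 3.91 FPKM stood above the 0.82 to 1.27 FPKM of the other islets, Pdk4 was called at day 60 (0.88, adjusted p = 0.0295). The 4 kinase genes together summed to 27.8 ± 4.68 FPKM in day 60 grafts, 31.6 ± 5.77 in day 120 grafts and 17.8 ± 5.28 in isolated islets. Pdk2 held the largest mean share in the grafts, 41.9% ± 10.7 and 44.0% ± 4.10, and Pdk3 in isolated islets, 38.0% ± 8.09. Shares overlapped, with Pdk3 at 26.3% to 44.3% and Pdk2 at 24.2% to 38.1% in isolated islets. In day 60 grafts Pdk1 was at 15.2% to 44.0% and Pdk2 at 26.6% to 51.0%.

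The target of these kinases, the E1 alpha subunit Pdha1, rose at day 60 by 0.46 on the log2 scale (SE 0.16, adjusted p = 0.0336, limma). It measured 68.4, 47.0, 55.5 and 51.8 FPKM in day 60 grafts, 43.4, 53.8, 49.5 and 53.6 in day 120 grafts, and 46.6, 39.0, 39.4 and 34.6 in isolated islets. Every day 60 graft lay above every islet library, the lowest by less than 1 FPKM, and the day 120 grafts overlapped the islets (0.32, adjusted p = 0.137, limma). The day 60 call was lost without islet replicate 2, 3 or 4 or day 60 replicate 1 or 3 (adjusted p from 0.0598 to 0.102), and under all 4 other scalings (adjusted p from 0.0821 to 0.441). Its partner Pdhb averaged 53.5 ± 6.37, 46.2 ± 4.18 and 49.4 ± 3.11 FPKM in day 60 grafts, day 120 grafts and isolated islets. Pcx, pyruvate carboxylase, which feeds oxaloacetate into the cycle and is abundant in both beta cells and fat, measured 60.9, 13.2, 28.2 and 18.5 FPKM in day 60 grafts, 29.1, 21.4, 25.3 and 28.2 in day 120 grafts, and 23.0, 24.2, 25.8 and 20.4 in isolated islets. Neither Pdhb nor Pcx was called, and for Pcx the day 60 libraries spread on both sides of the islets.

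**Figure D3:**
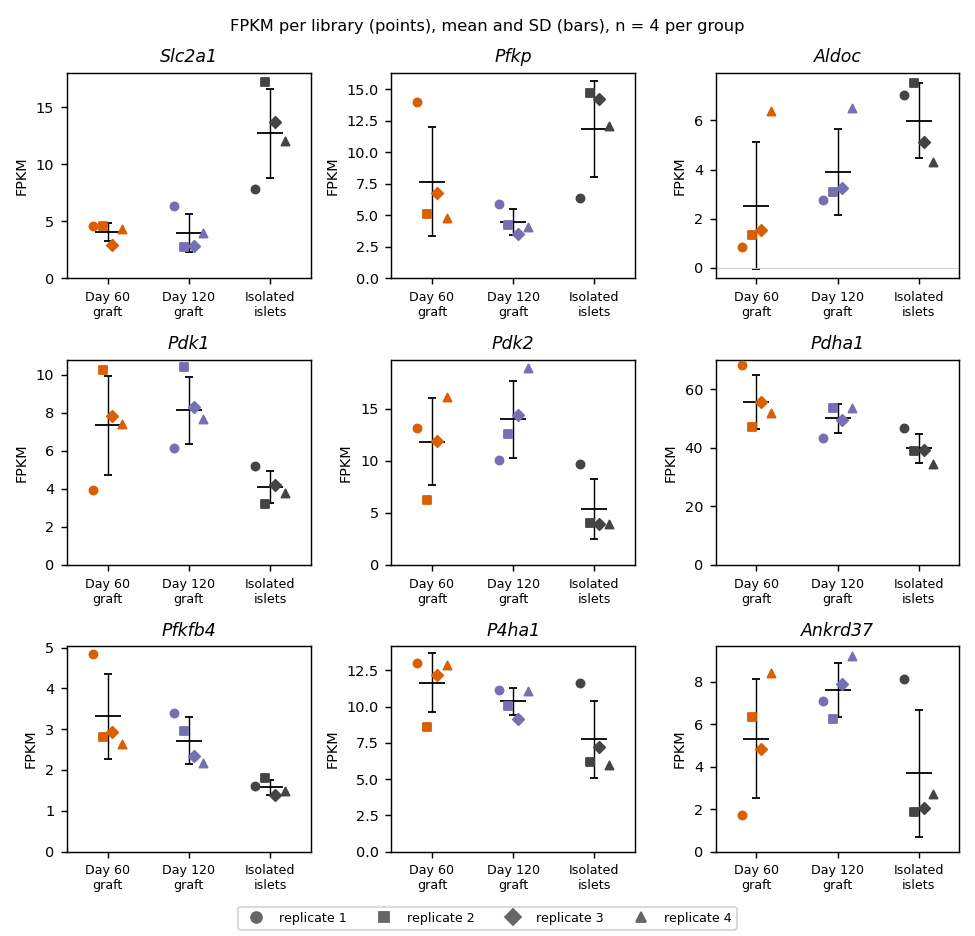
FPKM in each library for 9 genes, with the mean and SD of 4 libraries per group and symbols by replicate number. Slc2a1 is at 2.78 to 6.36 FPKM in the grafts and 7.85 to 17.2 FPKM in isolated islets, and islet replicate 1 lies nearest to the grafts, or among them, for Slc2a1, Pfkp, Pdk1, Pdk2, P4ha1 and Ankrd37.

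Among the 7 genes of oxygen sensing and HIF response, 1 of the 6 tested rose at day 60 and none was called at day 120 by limma, where 1 had an unadjusted p under 0.05, Ankrd37. P4ha1, the collagen prolyl 4-hydroxylase subunit that is both a HIF target and a matrix enzyme, measured 13.0, 8.62, 12.2 and 12.9 FPKM in day 60 grafts, 11.2, 10.1, 9.14 and 11.1 in day 120 grafts, and 11.7, 6.16, 7.24 and 5.97 in isolated islets. The grafts lay above 3 of the islet libraries and overlapped the range of all 4 through islet replicate 1. The day 60 difference of 0.56 (SE 0.21, adjusted p = 0.0422, limma) was called in only 2 of the 12 fits that left out a library, those without islet replicate 1 and without day 60 replicate 2, with adjusted p-values up to 0.123 in the others, and was lost under all 4 other scalings (adjusted p from 0.0877 to 0.345). At day 120 it was 0.42 (adjusted p = 0.134, limma), and 0.61 (adjusted p = 0.0119) without islet replicate 1. The fibroblast marker sum, of 8 matrix genes, spanned 793 to 5741 FPKM in day 60 grafts, 329.5 to 814 in day 120 grafts and 19.5 to 26.9 in isolated islets, and its part in P4ha1 was not tested.

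Ankrd37, a small ankyrin-repeat gene known as a direct HIF target, measured 1.72, 6.34, 4.84 and 8.40 FPKM in day 60 grafts, 7.08, 6.27, 7.91 and 9.25 in day 120 grafts, and 8.15, 1.85, 2.05 and 2.71 in isolated islets. All day 120 grafts lay well above islet replicates 2 to 4, and islet replicate 1 lay among them. The day 60 difference of 0.47 was not called (adjusted p = 0.356, limma), nor was it when any single library was left out. It was called without islet replicate 1 and day 60 replicate 1 together (1.21, adjusted p = 0.000284) and with array weights (0.93, adjusted p = 0.000499). The day 120 difference of 1.05 (SE 0.40) missed the threshold (adjusted p = 0.0627, limma). It was called without islet replicate 1 (1.43, adjusted p = 0.00687). It was also called without day 60 replicate 1, which left the difference at 1.05 (adjusted p = 0.0182). Hif1a itself averaged 17.3 ± 4.63 FPKM in day 60 grafts, 15.2 ± 0.59 in day 120 grafts and 18.2 ± 1.91 in isolated islets. It was not called at either time (-0.11, adjusted p = 0.666, and -0.24, adjusted p = 0.328, limma), although all 4 day 120 grafts, at 14.9 to 16.1 FPKM, lay below the lowest islet library at 16.2. Hif1a is regulated mainly through its protein, which was not measured.

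The oxygen sensors did not differ past the threshold. Egln1 averaged 10.9 ± 2.71, 11.7 ± 2.60 and 11.8 ± 1.13 FPKM, and Egln3, which is itself a HIF target, 1.29 ± 0.40, 0.98 ± 0.27 and 0.74 ± 0.40 FPKM in day 60 grafts, day 120 grafts and isolated islets. Without islet replicate 1, the highest of its islet libraries at 1.32 FPKM, Egln3 was called at day 60 (0.55, adjusted p = 0.0273). Bnip3, the HIF target of mitophagy, averaged 47.1 ± 20.9, 38.8 ± 4.14 and 36.6 ± 4.39 FPKM and was not called. Car9, carbonic anhydrase 9, a strongly oxygen-responsive gene in many tissues, did not pass the filter. It was listed at 0.328 to 0.428 FPKM in day 60 grafts, at 0, 0, 0.141 and 0.260 FPKM in day 120 grafts, and at 1.25, 0.326, 0.073 and 0.083 FPKM in isolated islets, so its highest value was that of islet replicate 1.

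**Figure D4:**
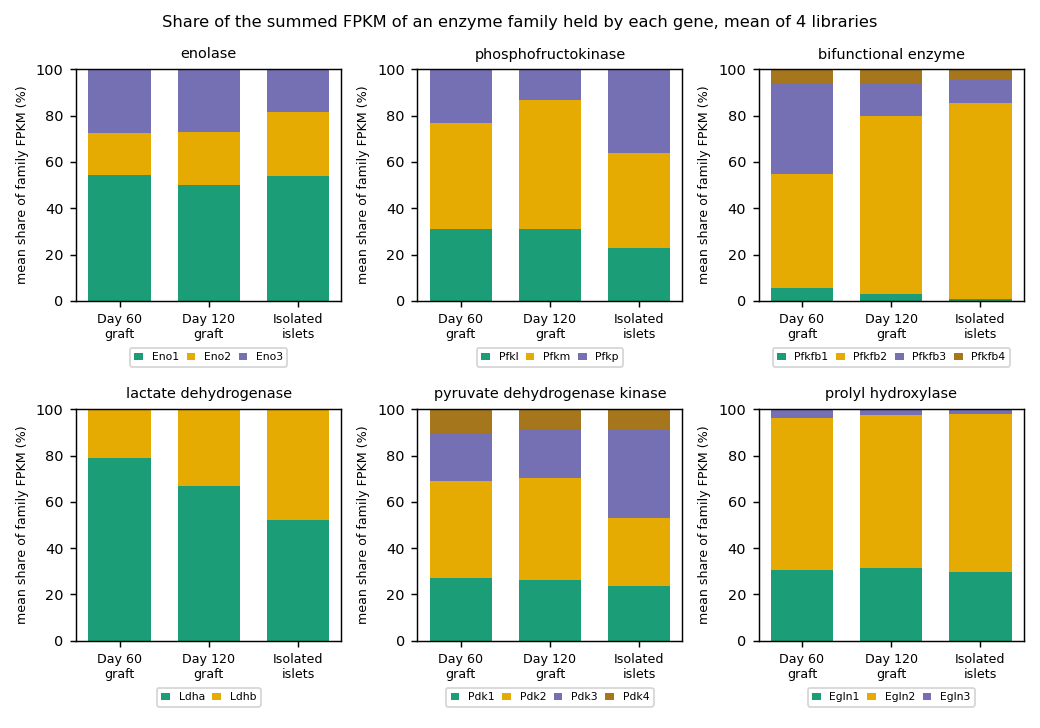
Share of the summed FPKM of 6 enzyme families held by each gene, as the mean of 4 libraries per group. The Pfkp share of phosphofructokinase is 23.3% in day 60 grafts, 13.4% in day 120 grafts and 36.1% in isolated islets, and Pfkfb2 holds the largest mean share of the bifunctional enzymes in every group, 49.3%, 76.8% and 84.3%.

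Pfkfb2, the bifunctional enzyme gene that led in isolated islets, held the largest mean share of its family in the grafts too. Pfkfb2 held 49.3% ± 29.4 of the summed FPKM in day 60 grafts, 76.8% ± 7.03 in day 120 grafts and 84.3% ± 3.92 in isolated islets, and Pfkfb3 38.6% ± 26.1, 13.7% ± 6.41 and 10.7% ± 3.15 in the same order (SD, n = 4 each). The day 60 means thus carried a wide spread between libraries. Ldhb, the lactate dehydrogenase gene of the set, was at 12.6 ± 3.28, 10.8 ± 2.55 and 10.5 ± 2.80 FPKM, while its share of the lactate dehydrogenase sum was 20.8% ± 13.8, 33.2% ± 8.55 and 47.7% ± 10.4. The rest was Ldha, outside the set, at 255, 29.9, 75.4 and 18.5 FPKM in day 60 grafts, 32.9, 13.0, 26.2 and 20.2 in day 120 grafts, and 9.25, 13.6, 9.52 and 13.7 in isolated islets. Ldha rose at day 60 (2.25, adjusted p = 0.0125, limma) and was not called at day 120 (0.89, adjusted p = 0.276). Over the day 60 grafts Ldha too stood in the order of the adipocyte sum, but not over the day 120 grafts, and the part of fat RNA was not tested.

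Spread between libraries was uneven. The median coefficient of variation of the 33 genes was 35.5% in day 60 grafts, 15.8% in day 120 grafts and 20.6% in isolated islets, against 32.1%, 17.5% and 23.6% over all tested genes. Day 60 replicate 1 was the highest of its group for 22 of the 33 genes (66.7%, against 37.7% of all tested genes), and day 60 replicate 2 the lowest for 16 (48.5%, against 28.8%). Isolated islet replicate 1 was the highest or the lowest islet library for 27 of the 33 (81.8%, against 78.4% of all). Without both islet replicate 1 and day 60 replicate 1, 10 genes rose and 3 fell at day 60, and 11 rose and 4 fell at day 120. The shares of all tested genes went up as well, to 42.3% higher and 15.8% lower at day 60 and 42.4% and 14% at day 120. Without islet replicate 1 alone, 10 rose and 3 fell at day 60 and 5 rose and 3 fell at day 120, and without islet replicate 2, 3 or 4, 3 rose at day 60 and 1 at day 120 in each case. Of all tested genes, 37% rose and 14.7% fell at day 60 and 31.4% rose and 10.3% fell at day 120 without islet replicate 1. Without another islet library, 22.6% to 23.7% rose at day 60 and 10.7% to 12% at day 120.

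Between the graft times no gene of the set was called by limma. In day 120 against day 60 grafts, 0 of 33 rose and 0 fell, where 1 of 13433 genes did each (0.00744% in each direction), 2 of the 33 had an unadjusted p under 0.05, and the groups of none of the 33 stood apart, against 4.29% of all tested genes. The 2 genes were Pfkfb3 (-1.47, SE 0.52, adjusted p = 0.49) and Hk3 (-0.81, SE 0.31, adjusted p = 0.49), and with array weights both were called lower at day 120 (-1.66, adjusted p = 0.0443, and -0.78, adjusted p = 0.0296). The median log2 difference was -0.13, against 0.03 for all tested genes. SEs lay between 0.14 and 0.52 on the log2 scale. The differences of Pfkfb3 and Hk3, well above their SEs, were not called. At this number of libraries the absence of calls thus does not show that the graft times were alike.

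Related pathways were taken from lists of other genes, against a background in which 31.3% of all tested genes rose and 12.3% fell at day 60, and 24.3% rose and 7.03% fell at day 120. Of 8 pentose phosphate genes, 6 rose and 1 fell at day 60 (75% and 12.5%) and 3 rose and 1 fell at day 120 (37.5% and 12.5%). Day 60 replicate 1, with the highest adipocyte and leukocyte sums, was the highest day 60 graft for each of them but Rpia. It was so for 37.7% of all tested genes, and the part of fat or leukocyte RNA was not tested. Pgls, 6-phosphogluconolactonase, rose at both times, with 54.5, 37.5, 43.8 and 38.2 FPKM in day 60 grafts, 42.0, 39.7, 39.9 and 34.9 in day 120 grafts, and 24.1, 28.5, 15.8 and 15.5 in isolated islets (1.05, adjusted p = 0.00249, and 0.91, adjusted p = 0.00891, limma). Every graft exceeded every islet library for Pgls. Of 16 genes of the tricarboxylic acid cycle, 6 rose and 0 fell at day 60 (37.5% higher) and 2 rose and 0 fell at day 120 (12.5%, below the background). Ogdh, a 2-oxoglutarate dehydrogenase subunit, rose at both times (1.15, adjusted p = 0.0133, and 1.39, adjusted p = 0.0101, limma). Its islet replicate 1, at 30.5 FPKM, lay within the day 60 graft range of 21.2 to 35.7 FPKM. That library was also level with the lowest day 120 graft, in a range of 30.5 to 41.2 FPKM. The other islets were at 8.03 to 11.1 FPKM. Of 26 other pyruvate and shuttle genes, 11 rose and 3 fell at day 60 (42.3% and 11.5%) and 4 rose and 1 fell at day 120 (15.4% and 3.85%, both below the background). The cytosolic aspartate aminotransferase Got1 fell at both times (-1.35, adjusted p = 0.00301, and -1.08, adjusted p = 0.0145, limma), with islet replicate 1, at 10.1 FPKM, at the level of the grafts and the other islets at 26.9 to 28.0 FPKM. Of 23 other glycolysis genes, 6 rose and 0 fell at each time (26.1%, below the background at day 60 and near it at day 120). G6pc2, the islet glucose-6-phosphatase, rose at day 120 (1.93, adjusted p = 0.0227, limma). It was at 1163, 1213, 1073 and 1295 FPKM in day 120 grafts, against 1133, 265, 195 and 156 FPKM in isolated islets, so that islet replicate 1 again stood among the grafts.

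The other hypoxia and HIF genes moved in both directions, with more calls higher than lower, as did all tested genes. Of 44 tested, 17 rose and 7 fell at day 60 (38.6% and 15.9%, against 31.3% and 12.3% of all). At day 120, 11 rose and 3 fell (25.0% and 6.82%, against 24.3% and 7.03% of all), near the background. The groups stood apart for 16 higher and 4 lower at day 60 (45.5%, against 31.1% of all tested genes). At day 120 they did for 12 higher and 4 lower (36.4%, against 35.5%). Bhlhe40, a transcriptional repressor induced by hypoxia, was at 16.7, 10.2, 8.67 and 10.8 FPKM in day 60 grafts, 4.47, 8.41, 15.6 and 15.7 in day 120 grafts, and 41.8, 38.4, 38.0 and 38.0 in isolated islets (-1.71, adjusted p = 0.00181, and -1.87, adjusted p = 0.00267, limma). Every graft lay below every islet library. The transferrin receptor Tfrc measured 5.94, 12.6, 5.83 and 4.58 FPKM in day 60 grafts, 6.97, 9.25, 5.86 and 5.52 in day 120 grafts, and 16.8, 21.8, 26.6 and 22.0 in isolated islets. The nuclear receptor gene Rora measured 3.43, 1.72, 2.81 and 1.35, then 4.87, 1.64, 1.92 and 1.27, and 8.38, 11.8, 17.97 and 8.41 FPKM in the same order of groups. Both fell at both times with no overlap. Lox, lysyl oxidase, a HIF target that crosslinks collagen, rose at both times, with 40.2, 3.94, 10.0 and 7.04 FPKM in day 60 grafts, 3.96, 4.42, 3.90 and 8.37 in day 120 grafts, and 0.312, 0.606, 0.141 and 0.0860 in isolated islets (3.19, adjusted p = 0.000851, and 2.22, adjusted p = 0.00882, limma). Every graft exceeded every islet library, as was the case for the fibroblast marker sum given above, whose part in Lox was not tested. No isolated islet library reached 1 FPKM for Lox, so it passed the filter only through the grafts.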

How the data were processed

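Total RNA was sequenced per the labels' protocols from 12 libraries, with cDNA made from 10 ng by a SMARTer low-input kit and libraries built with NEBNext reagents for a HiSeq instrument. The authors deposited 1 table of FPKM per gene symbol and library. TopHat2 (given as version 2.8.0), Cufflinks 2.1.1 and the mouse build mm9 are named, per the submitters' processing notes; options, annotation and any scaling between libraries are not given in the sources used here. Read counts were not used here, so the depth is unknown, no counting interval is given and no count test was run. Per library, the values deposited added up to 396769 to 786366 FPKM, with no common total.

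Genes at 1 FPKM or more in at least 4 libraries were tested (13433 of 23234) as log2(FPKM + 1), with limma 3.58.1 and statmod 1.5.0 in R 4.3.3: group as the only term, 12 libraries, mean-variance trend, robust variances, two-sided tests, Benjamini-Hochberg adjustment over all tested genes and a threshold of 0.05. Fold changes of low genes are understated on this scale. The labels do not say that libraries are separate animals, so p-values measure only how these libraries vary, which may be technical. On simulated data for the day 60 comparison with 13433 genes, 49% of 100 genes changed by 1 log2 unit and 92% of 100 changed by 2 were recovered, and 12 unchanged genes were called. The simulation changed only 200 genes and gave every group the same normal spread. In the data 5865 genes were called at day 60, and the day 60 grafts spread most, so these rates need not carry over.

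Genes of the set and the pathway and marker lists were chosen with earlier results of these data known. The shares planned for 1 further enzyme family are not reported here. All 35 genes are named, and of each pathway list at most 4 per comparison with the smallest p past the threshold. Both graft groups share replicate numbers: deviations from the group means correlated at 0.402, 0.442, 0.180 and 0.230 for same-numbered day 120 and day 60 libraries, and at -0.0784 to 0.0199 for same-numbered grafts and islets. The pairing of the grafts comes from these values and not from the labels, and was fitted with an estimated correlation of 0.349. Alternatives were a pseudocount of 0.1, no filter, a filter of 5 FPKM, 4 scalings, limma without trend or robust variances, array weights (estimated gene by gene, since the usual estimate did not converge), 2 replicate blocks, and libraries left out. Promoters were read from RefSeq, GRCm38.p6, and no coordinates of the authors' build are given.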

Additional observations from a re-analysis of the deposited data

Results flagged for a closer look

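In 105 combinations of a gene and a group of 4 libraries, 8 had a library far from the other 3 by Dixon's test; chance flags about 1 in 20. In day 60 grafts these were Slc2a1 in replicate 3, at 2.90 FPKM against 4.29 to 4.57 in the others, Pfkfb4 in replicate 1, at 4.85 against 2.65 to 2.93, and P4ha1 in replicate 2, at 8.62 against 12.2 to 13.0. In day 120 grafts it was Hif1a in replicate 1, at 16.1 against 14.9 to 15.0. In isolated islets they were Pgk1 in replicate 1, at 41.8 against 70.0 to 76.3, Pdk2 in replicate 1, at 9.74 against 3.91 to 4.08, Aldoa in replicate 2, at 248 against 199 to 205, and Pdk3 in replicate 4, at 5.61 against 6.71 to 6.78. Isolated islet replicate 1 thus appears for 2 genes, and its values there lie within or beside the graft range. Where leaving out 1 of these libraries changed a call for that gene, the value without it is given beside the gene above.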

How the results depend on the processing

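No gene of the set that was called changed its sign under any alternative. The numbers that rose and fell were 7 and 2 at day 60 and 3 and 2 at day 120. At day 60 they were 4 and 2 with upper-quartile scaling, 3 and 3 with quantile normalization, 3 and 4 with scaling to the sum without hormone and acinar genes, 4 and 1 with endocrine reference scaling, and 13 and 5 with array weights. At day 120 they were 2 and 3, 1 and 3, 2 and 4, 0 and 0, and 12 and 5 in the same order, and without islet replicate 1 and day 60 replicate 1 together 11 and 4. The shares of all tested genes moved with these counts: with array weights 49.6% were higher and 20.1% lower at day 60 and 48.4% and 17.5% at day 120, and with endocrine reference scaling 23.1% and 2.55% and 0.782% and 1.49%. Between graft times, array weights alone gave calls, 2 lower. Leaving out 1 library gave from 3 to 10 higher and from 1 to 3 lower at day 60, and from 1 to 5 higher and from 1 to 3 lower at day 120. With the grafts paired as a replicate block the counts were 8 and 2 at day 60 and 3 and 2 at day 120, and the 3 calls that changed are given beside Hk3, Tpi1 and Pfkfb4. With the replicate number as a block over all libraries, which islets and grafts share only as a number, the counts were 6 and 2 and 3 and 2, Pdk1, Pdha1 and Hk3 missed the threshold (adjusted p = 0.0519, 0.0526 and 0.0533), and Tpi1 at day 60 and Pfkfb4 at day 120 passed it. In endocrine reference scaling, day 60 replicate 1 was divided by 0.334 and the other libraries by 0.721 to 1.37. The cause of the shifts in these counts was not tested. Low genes such as Car9, Slc16a3 and Slc2a3 are limited by a depth that is unknown.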
